A study of Mus musculus with 15 samples.

Results

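The genes described here are the 10 mouse genes of the MHC class II antigen presentation machinery, measured by RNA sequencing of whole liver. They were chosen by name: H2-Aa, H2-Ab1, H2-Eb1, H2-DMa, H2-DMb1, H2-DMb2, H2-Oa, H2-Ob, Cd74 and Ciita. All 10 were found among the 37991 gene identifiers of the count table, and all 10 were among the 14258 genes abundant enough to be tested. The livers came from female C57BL/6 mice in 3 groups of 5 libraries. Wild-type livers were taken at 90 days (young WT) or 600 days (old WT). The third group, old KO, was also 600 days of age and carried a germline deletion of Rps6kb1, which encodes ribosomal S6 kinase 1 (S6K1). Since the deletion was in all cells, its effects in immune cells and in hepatocytes cannot be told apart, and with no young knockout mice, genotype was compared at 600 days alone.

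An MHC class II molecule is a pair of an alpha and a beta chain that displays peptides to CD4 T cells. The chains assemble on the invariant chain, the product of Cd74, which blocks the peptide groove and directs the complex to endosomes. There, proteases trim the invariant chain to a short fragment, H2-DM exchanges this fragment for peptides, and H2-O restrains H2-DM. Ciita encodes the coactivator on which transcription of these genes depends. It does not bind DNA itself but is recruited by factors on the X box (RFX, CREB) and the Y box (NF-Y) of their promoters. In the liver class II molecules are known mainly from dendritic cells, Kupffer cells (the resident macrophages) and B cells. C57BL/6 mice carry a defective H2-Ea gene, so of the classical pairs they make H2-A only.

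The upstream sequences are shown because the X and Y boxes are what the promoters of this family are known to share. RefSeq promoter sequences on GRCm38.p6, running from 250 bases before to 50 bases after each transcription start, were found for 7 of the 10 genes. H2-Ab1, Cd74 and Ciita had no entry. Each line below gives positions -130 to -31 from the start, 100 bases, 5′ to 3′ on the strand of the gene. Capitals mark the letters TGATTGG (Y box) and, upstream of it, NAACNNATG (X box, N being any base), which were chosen after looking at the sequences and searched on both strands. The windows lie at chr17:34305737-34305836 (H2-Eb1), chr17:34153061-34153160 (H2-DMb1), chr17:34145119-34145218 (H2-DMb2), chr17:34238775-34238874 (H2-Ob) and chr17:34092249-34092348 (H2-Oa) on the plus strand and at chr17:34287854-34287953 (H2-Aa) on the minus strand.
H2-Eb1: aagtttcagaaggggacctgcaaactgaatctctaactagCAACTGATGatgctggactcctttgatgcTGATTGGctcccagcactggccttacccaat
H2-DMb1: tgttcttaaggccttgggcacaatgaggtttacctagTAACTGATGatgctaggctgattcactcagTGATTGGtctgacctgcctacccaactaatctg
H2-DMb2: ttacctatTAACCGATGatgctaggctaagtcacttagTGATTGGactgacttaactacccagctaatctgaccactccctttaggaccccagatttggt
H2-Ob: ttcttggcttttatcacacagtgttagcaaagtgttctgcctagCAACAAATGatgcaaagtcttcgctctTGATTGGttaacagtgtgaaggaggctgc
H2-Aa: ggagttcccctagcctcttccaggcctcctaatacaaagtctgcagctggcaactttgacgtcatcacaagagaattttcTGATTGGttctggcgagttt
H2-Oa: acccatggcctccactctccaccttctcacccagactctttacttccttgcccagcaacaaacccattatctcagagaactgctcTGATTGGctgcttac

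The Y box letters stood upstream of 6 of the 7 genes, all on the strand of the gene, and were found in 7.82% of the 32851 promoters in the table. The X box letters stood upstream of 4 of the 7 (8.85% of all promoters), and both stood together in those 4 genes, against 0.785% of all promoters. The motifs did not overlap each other. The X box letters ended 21 bases before the Y box in H2-DMb1 and H2-DMb2, 20 bases before it in H2-Eb1 and 18 bases before it in H2-Ob. Neither string was found in the 2 promoters listed for H2-DMa. A match describes these letters alone and was not a test of binding.

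**Figure D1:**
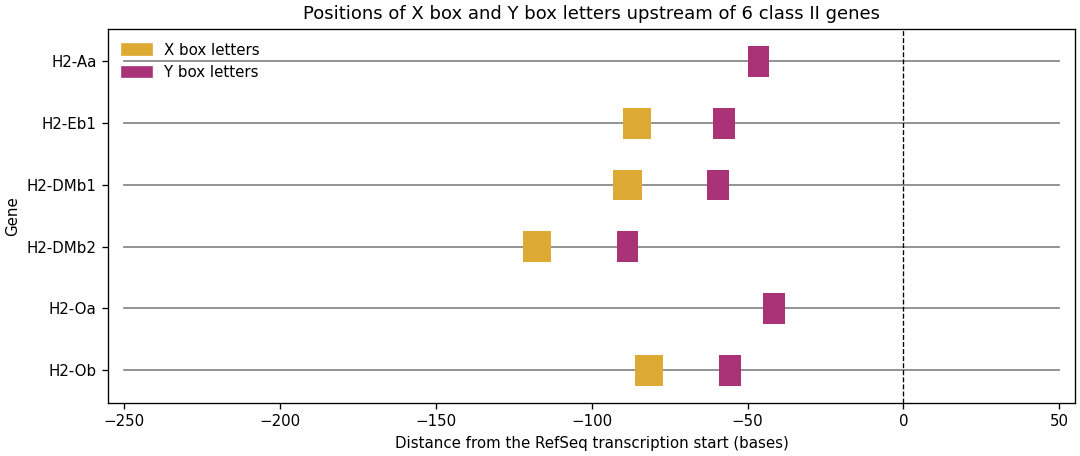
Positions of the X box letters (yellow) and Y box letters (purple) relative to the RefSeq transcription start (dashed line), in bases, for the 6 class II genes with a Y box match; grey lines span the 300 bases searched. In the 4 genes with both matches the X box lies upstream of the Y box, 18 to 21 bases apart, and the pair of H2-DMb2 lies farther from the start than that of H2-DMb1.

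On mm9, the genome build of the counts, 8 of the 10 genes lay in the class II region of chromosome 17, from H2-Oa (chr17:34229285-34232179) to H2-Eb1 (chr17:34442828-34453144). Ciita lay on chromosome 16 (chr16:10480237-10527657) and Cd74 on chromosome 18. Libraries are named by group and by the number in their titles, and held 21801754 to 38065359 counts. Levels are CPM, read counts relative to library size after scaling for composition. Rps6kb1, the targeted gene, measured 15.2 to 20.8 CPM in old KO and 34.6 to 45.4 CPM in old WT. Its transcript fell by 1.17 on the log2 scale (SE 0.0979, edgeR adjusted p = 8.54e-06) and was not lost. Alb, the albumin gene of hepatocytes, was detected in every library, as was every marker chosen to define macrophages, dendritic cells, B cells and T cells.

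Per kilobase of exon, a scale that allows genes to be compared, the levels spanned a wide range within each group. Cd74 was the highest, at 65.7 ± 13.7 CPM per kb in old WT (SD, n = 5). The classical chain genes followed, with H2-Eb1 at 26.6 ± 5.40, H2-Aa at 21.8 ± 4.13 and H2-Ab1 at 18.0 ± 4.18 CPM per kb, each within 1 SD of its neighbour. The genes of the peptide exchange factor H2-DM came next, with 2.63 ± 0.396 CPM per kb for H2-DMb1 and 2.47 ± 0.137 for H2-DMa. H2-DMb2 (0.688 ± 0.269), H2-Ob (0.600 ± 0.263), H2-Oa (0.406 ± 0.226) and Ciita (0.374 ± 0.0607) closed the order, each less than 1 SD from the next. The first 4 places were held by the same genes in the same order in young WT (Cd74 at 52.7 ± 25.9) and in old KO (Cd74 at 47.0 ± 15.1 CPM per kb).

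Among the other class II genes of the region, H2-Ea had counts in 1 of 15 libraries, at 0.0326 CPM, and stood at 0 in the other 14. H2-Eb2, a little expressed relative of H2-Eb1, reached 0.513 CPM at most. H2-Eb1 was thus detected while its partner chain was all but absent.

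The first comparison, old WT against young WT, asked how the liver changed between 90 and 600 days. The class II genes were higher on average in old WT, but none passed the test. All 10 fold changes were positive, with a median of 0.47 on the log2 scale against 0.01 over all genes tested, of which 51.2% were positive. The 10 signs are not independent results, since many of these genes were low or high in the same libraries, as given below. By edgeR, 0 of 10 had an adjusted p under 0.05, where 18.8% of all genes tested did (9.92% higher and 8.91% lower), and 3 of 10 had an unadjusted p under 0.05, where 33.0% did. DESeq2 called 1 of 10 (H2-Oa) and limma voom 1 of 10 (H2-DMb1). In 0 of 10 did the 5 old WT libraries stand clear of the 5 young WT libraries, against 11.4% of all genes.

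The second comparison, old KO against old WT, asked what the loss of S6K1 changed at 600 days. All 10 fold changes were negative, with a median of -0.57 against 0.00 over all genes tested, of which 49.8% were negative. As for age, these 10 signs are not independent. Again 0 of 10 were called by edgeR, where 0.533% of all genes were called (0.112% higher and 0.421% lower), and 0 of 10 by DESeq2 and by limma voom. At an unadjusted p under 0.05, edgeR counted 3 of 10, against 11.6% of all genes. In 1 of 10, H2-DMa, all old KO libraries lay below all old WT libraries, as they did in 2.08% of all genes. The 2 comparisons share the old WT libraries, so a high old WT mean gives opposite signs in both.

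Old KO and young WT livers, compared directly, were close on average, with 4 positive and 6 negative fold changes and a median of -0.06. None of the 10 was called by edgeR, DESeq2 or limma voom, where edgeR called 23.3% of all genes, and 0 of 10 had an unadjusted p under 0.05 (36.8% of all genes). The SEs of these fold changes lay between 0.261 and 0.595. Differences of that size, and larger ones, could not be told from none: H2-Oa, at 0.74 (SE 0.595), had an edgeR adjusted p of 0.391. These are bulk samples: fewer cells of a type and less RNA per cell cannot be told apart in any of these values.

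**Figure D2:**
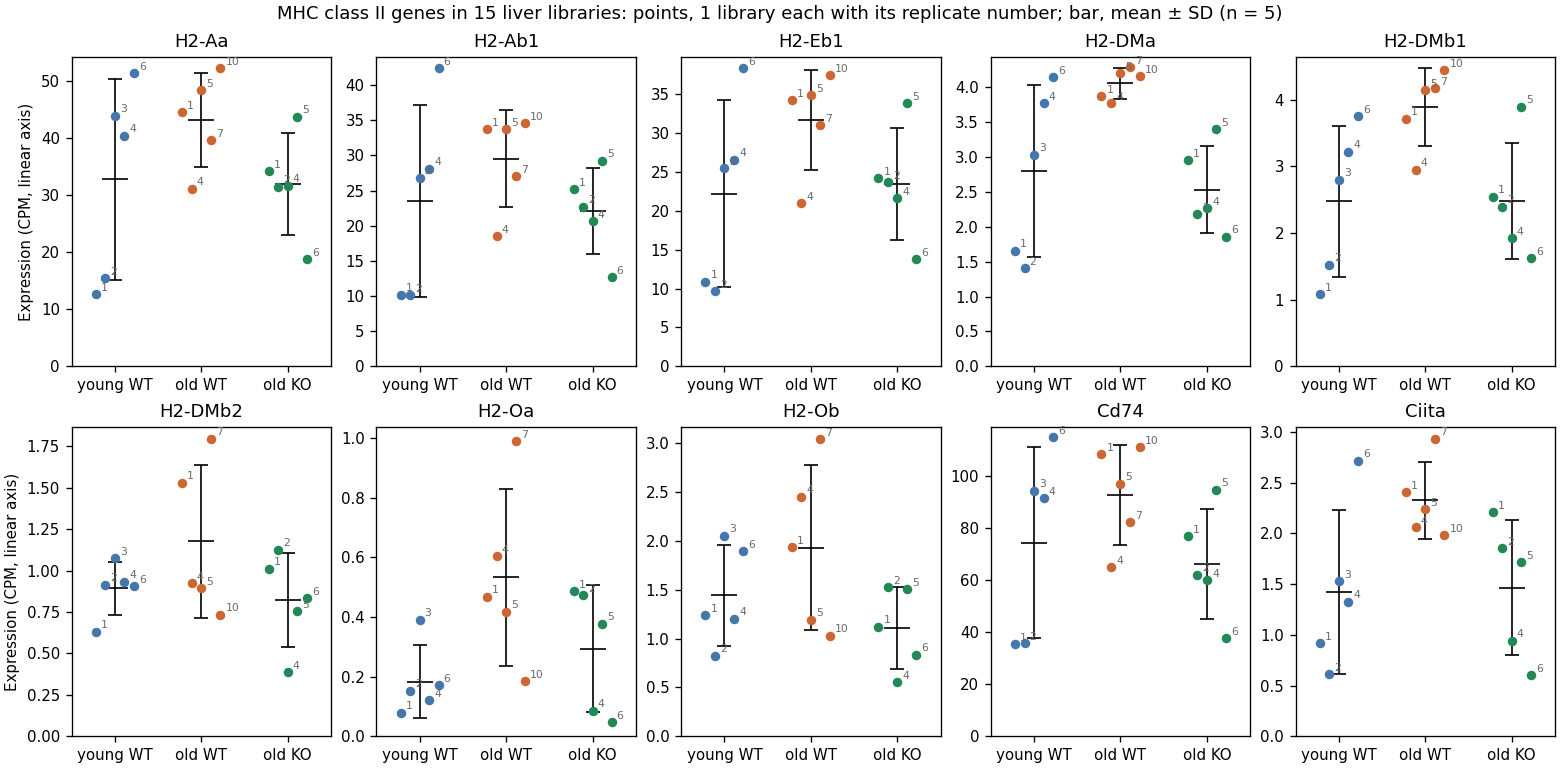
Expression of the 10 genes in CPM (linear axis from 0) by group, with 1 point per library labelled with its number, and the mean ± SD of 5 libraries. For H2-Aa, H2-Ab1, H2-Eb1 and Cd74, young WT 1 and 2 lie far below the other 3 young WT libraries, and H2-DMa shows the narrow old WT group above every old KO library.

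In what follows, values of single libraries are given for young WT 1, 2, 3, 4 and 6, for old WT 1, 4, 5, 7 and 10, and for old KO 1, 2, 4, 5 and 6, in these orders. Ciita, the transcriptional coactivator, measured 0.921, 0.611, 1.53, 1.33 and 2.72 CPM in young WT. In old WT it measured 2.41, 2.06, 2.24, 2.93 and 1.99 CPM, and in old KO 2.21, 1.85, 0.942, 1.72 and 0.603 CPM. All 5 old WT values exceeded the young WT median, but young WT 6 lay inside the old WT range, as did old KO 1. The age difference was 0.74 on the log2 scale (SE 0.350, edgeR adjusted p = 0.155). When single libraries were left out it ranged from 0.54 to 1.09, with edgeR adjusted p from 0.0267 (without young WT 6) to 0.305. Over the other settings tried the adjusted p lay between 0.0598 and 0.471. The genotype difference was -0.65 (SE 0.353, edgeR adjusted p = 0.505).

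H2-Aa, the alpha chain of H2-A, measured 12.7, 15.5, 44.0, 40.5 and 51.4 CPM in young WT. The old WT values were 44.6, 31.2, 48.4, 39.7 and 52.3 CPM, and in old KO 34.2, 31.5, 31.7, 43.8 and 18.8 CPM. The young WT libraries fell into a low pair (1 and 2) and 3 libraries within the old WT range, and old KO 6 was the lowest of the old livers. All 5 old KO values lay below the old WT median, and 4 of them inside the old WT range. The fold change was 0.40 for age (SE 0.323, edgeR adjusted p = 0.409) and -0.43 for genotype (SE 0.324, edgeR adjusted p = 0.663).

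The beta chains followed the same libraries. H2-Ab1, the beta chain of H2-A, ranged from 10.1 to 42.4 CPM in young WT, 18.5 to 34.6 CPM in old WT, and old KO spanned 12.7 to 29.3 CPM, with fold changes of 0.33 for age and -0.42 for genotype. H2-Eb1, the beta chain of H2-E, ranged from 9.68 to 38.3, from 21.0 to 37.4 and from 13.8 to 33.8 CPM, with fold changes of 0.52 and -0.43. For both genes each pair of groups overlapped. H2-Aa and H2-Ab1 lie on opposite strands and share 17 exonic bases, which is 0.86% of the H2-Aa exons, so reads of one could enter the other only to that extent.

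Cd74, the invariant chain gene, measured 35.4, 35.7, 94.4, 91.6 and 114.8 CPM in young WT. In old WT it measured 108.4, 64.8, 97.0, 82.2 and 111.0 CPM, and in old KO 76.9, 62.0, 60.0, 94.7 and 37.6 CPM. The same libraries were low as for H2-Aa: young WT 1 and 2, old WT 4 and old KO 6. The fold change was 0.32 for age (SE 0.310, edgeR adjusted p = 0.499) and -0.48 for genotype (SE 0.311, edgeR adjusted p = 0.583).

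H2-DMa, the alpha chain of the peptide exchange factor, measured 1.66, 1.40, 3.03, 3.77 and 4.14 CPM in young WT. Old WT libraries gave 3.87, 3.77, 4.20, 4.29 and 4.15 CPM, and in old KO 2.96, 2.18, 2.27, 3.40 and 1.86 CPM. The old WT libraries were tightly grouped, with a coefficient of variation of 5.52%, and the highest old KO value (3.40) lay below the lowest old WT value (3.77). The genotype difference was -0.68 (SE 0.258), with an edgeR adjusted p of 0.299 over all genes, and the exact 2-sided permutation test of the 5 libraries against 5 gave an unadjusted p = 0.00794, the smallest it can give. The age difference was 0.55 (SE 0.254, edgeR adjusted p = 0.146). Its adjusted p for genotype lay between 0.0887 and 0.621 over the other settings tried and between 0.204 and 0.480 when single libraries were left out.

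H2-DMb1, a beta chain of H2-DM, measured 1.08, 1.53, 2.80, 3.22 and 3.75 CPM in young WT. In old WT it measured 3.72, 2.95, 4.15, 4.18 and 4.45 CPM, and in old KO 2.55, 2.40, 1.93, 3.90 and 1.62 CPM. Old KO 5 alone of the old KO libraries reached into the old WT range. The fold change was 0.66 for age (SE 0.293, edgeR adjusted p = 0.125, limma voom adjusted p = 0.0498) and -0.65 for genotype (SE 0.296, edgeR adjusted p = 0.414).

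H2-DMb2, the other H2-DM beta chain gene, ranged from 0.632 to 1.08 CPM in young WT, 0.735 to 1.796 CPM in old WT and, in old KO, 0.386 to 1.13 CPM, and its fold changes were 0.40 and -0.50. The beta chain genes are near copies: 324 of the 1148 windows of 50 bases in the H2-DMb1 exons also occur in H2-DMb2. Of the windows, 71.8% in H2-DMb1 and 67.8% in H2-DMb2 occur once in the genome. How reads from shared windows were counted is not given, so the levels of both genes and their shares are uncertain. H2-DMb2 held 28.8 ± 8.22% of the summed counts of both in young WT, 23.0 ± 6.96% in old WT and 25.4 ± 8.46% in old KO (SD, n = 5). For the other 8 genes at least 99.6% of such windows occur once in the genome.

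H2-Oa, the alpha chain of the H2-DM inhibitor, measured 0.0790, 0.153, 0.391, 0.120 and 0.172 CPM in young WT. The old WT values were 0.469, 0.605, 0.418, 0.990 and 0.184 CPM, and in old KO 0.487, 0.472, 0.0855, 0.377 and 0.0464 CPM. These are few reads, 28 over all young WT libraries, 78 over old WT and 38 over old KO. Its age difference, 1.54 (SE 0.547), was the largest of the 10, with an edgeR adjusted p of 0.0600 and a DESeq2 adjusted p of 0.0433. Only old WT 10 lay inside the young WT range. The edgeR adjusted p was 0.0304 at its lowest and 0.143 at its highest when single libraries were left out, under 0.05 without young WT 3, old WT 10 or old KO 6. The genotype difference was -0.80 (SE 0.525, edgeR adjusted p = 0.594), with old KO libraries both inside and below the old WT range.

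H2-Ob, the beta chain of H2-O, measured 1.24, 0.824, 2.05, 1.20 and 1.90 CPM in young WT. Old WT libraries gave 1.94, 2.45, 1.19, 3.04 and 1.03 CPM, and in old KO 1.12, 1.53, 0.557, 1.51 and 0.835 CPM. Old WT 4 and 7 held its highest values, and old WT 10, the highest old WT library for H2-Aa and Cd74, was the lowest of its group for H2-Ob. The fold change was 0.43 for age (SE 0.333, edgeR adjusted p = 0.395) and -0.78 for genotype (SE 0.344, edgeR adjusted p = 0.386).

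**Figure D3:**
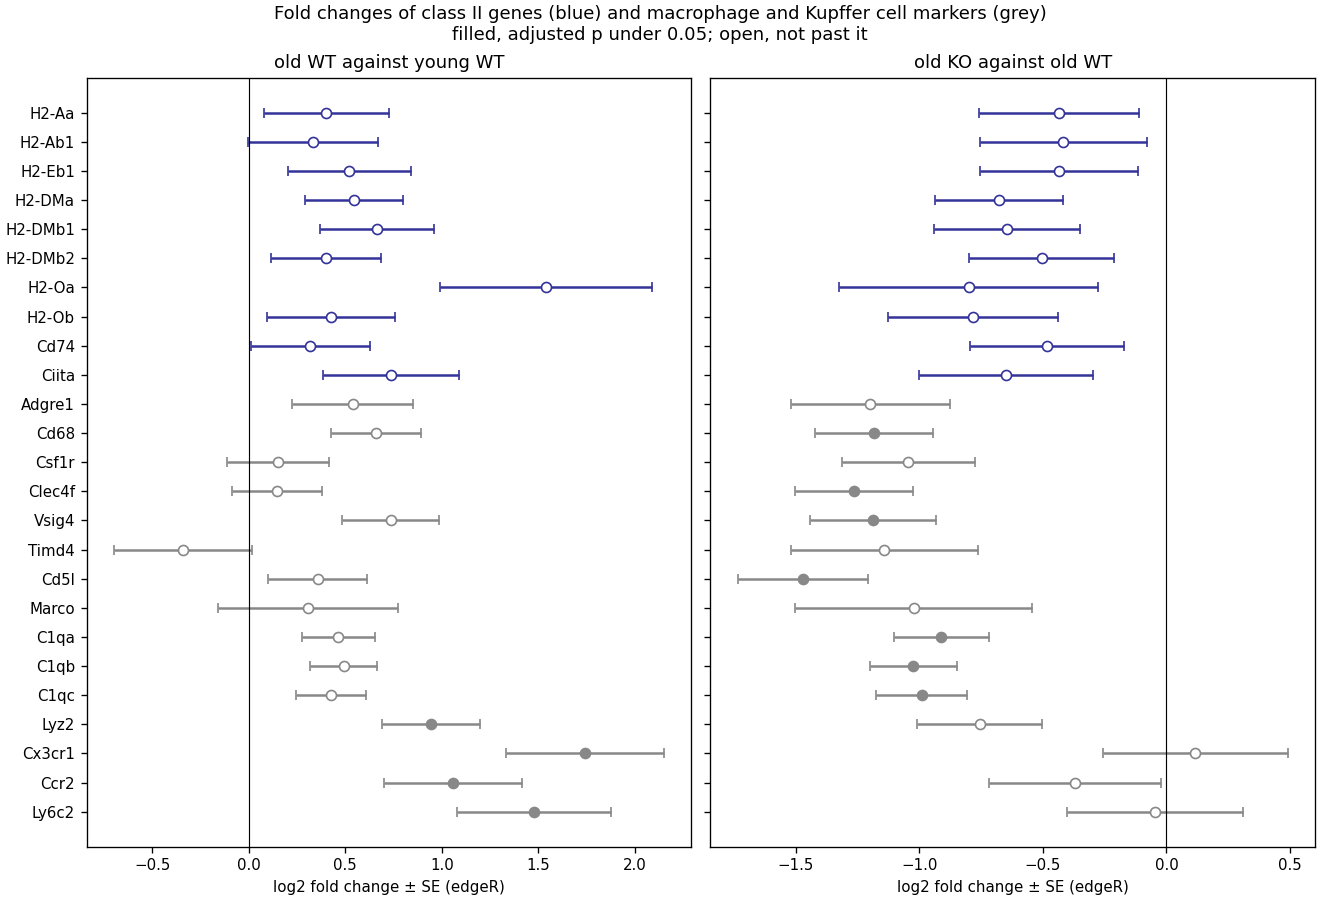
Log2 fold changes ± SE from edgeR for the 10 class II genes (blue) and 15 macrophage and Kupffer cell markers (grey), old WT against young WT on the left and old KO against old WT on the right; filled points have an adjusted p under 0.05. The class II genes are all open, at 0.32 to 1.54 on the left and -0.80 to -0.42 on the right, while 4 markers are filled on the left and 7 on the right.

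The spread between libraries of a group was wide for these genes, with a median SE of the age fold change of 0.32 against 0.14 over all genes tested. The coefficient of variation was highest in young WT for 7 of the 10 genes, in old WT for H2-DMb2 and H2-Ob, and in old KO for H2-Oa. That of H2-Aa was 53.6% in young WT, 19.0% in old WT and 27.8% in old KO, and that of Cd74 was 49.2%, 20.8% and 32.04%. For H2-DMb2 it was 18.1% in young WT, 39.1% in old WT and 34.6% in old KO. In young WT, libraries 1 and 2 held the lowest value of all 10 genes (5 each), and library 6 the highest of 7. In old KO, library 6 held the lowest value of 8 genes. In old WT the lowest value was in library 4 for 6 genes and in library 10 for 4, and library 10 held the highest value of 5 others.

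The young WT libraries also differed in cell type markers. The summed level of 15 macrophage and Kupffer cell markers was 283 and 245 CPM in young WT 1 and 2 and 451 to 517 CPM in the other 3 young WT libraries. The summed T cell markers were 3.34 and 2.41 CPM in young WT 1 and 2 and 4.16 to 5.99 CPM in the other 3. Liver endothelial markers summed to 172 and 155 CPM in young WT 1 and 2 and to 208 to 288 CPM in the others. Hepatocyte markers stood apart in another library, with 70730 CPM in young WT 6 and 107400 to 115800 CPM in the other 4. Young WT 1 was the deepest library and young WT 6 the shallowest (21801754 counts). The part of cell content and of depth in the spread of the class II genes was not tested.

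Over the 15 libraries, after removal of group means, the genes fell into sets that moved together. H2-Aa, H2-Ab1, H2-Eb1, Cd74, H2-DMa and H2-DMb1 followed each other closely, with Pearson r of 0.915 to 0.992 over the 15 pairs of genes (Spearman rho 0.875 to 0.982). H2-DMb2, H2-Oa and H2-Ob correlated with each other at 0.684 to 0.788 and with those 6 genes at 0.147 to 0.432. H2-DMb1 and H2-DMb2, despite their shared sequence, correlated at 0.276 only. Ciita correlated at 0.743 to 0.806 with the 6 genes, at 0.682 with H2-Oa, at 0.671 with H2-Ob and at 0.42 with H2-DMb2. These correlations are descriptions over 15 libraries whose genes share depth, scaling and tissue sample, and the sets were formed after the values were seen.

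The summed levels of cell type markers were set beside the genes in the same way. The summed level of 10 B cell markers, among them Ms4a1, correlated with H2-Ob at r = 0.889 (rho 0.757) and with H2-Oa at 0.779 (rho 0.736) over the 15 libraries, group means removed. With the 2 libraries farthest from the median B cell level left out, r was 0.854 and 0.801. H2-Ob and H2-Oa also followed the summed dendritic cell markers, at 0.730 (rho 0.761) and 0.586 (rho 0.707). H2-DMb2 correlated with the B cell sum at 0.644 and with the dendritic cell sum at 0.411, and without the 2 farthest libraries at 0.515 and 0.566. The same B cell sum correlated with the 6 genes around H2-Aa at 0.287 to 0.469 (rho 0.011 to 0.329). Those 6 followed the dendritic cell sum at 0.790 to 0.884 (rho 0.711 to 0.871), the macrophage and Kupffer cell markers at 0.578 to 0.689 (rho 0.507 to 0.614) and the T cell markers at 0.578 to 0.673 (rho 0.546 to 0.725). Ciita followed the dendritic cell sum at 0.893 and the B cell sum at 0.661. Hepatocyte markers correlated with the 6 genes at -0.330 to -0.095 (rho -0.239 to -0.021), and without the 2 farthest libraries at -0.015 to 0.229. Marker by marker, the order of the cell types was different. Single markers were correlated with the mean standardised level of all 10 genes. The median r was 0.705 for macrophage and Kupffer cell markers and 0.589 for T cell markers. It was 0.439 for B cell markers and 0.436 for dendritic cell markers, which ran from -0.094 (Zbtb46) to 0.857 (Irf8), with Clec9a at 0.336. No test of the difference between these correlations was made.

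**Figure D4:**
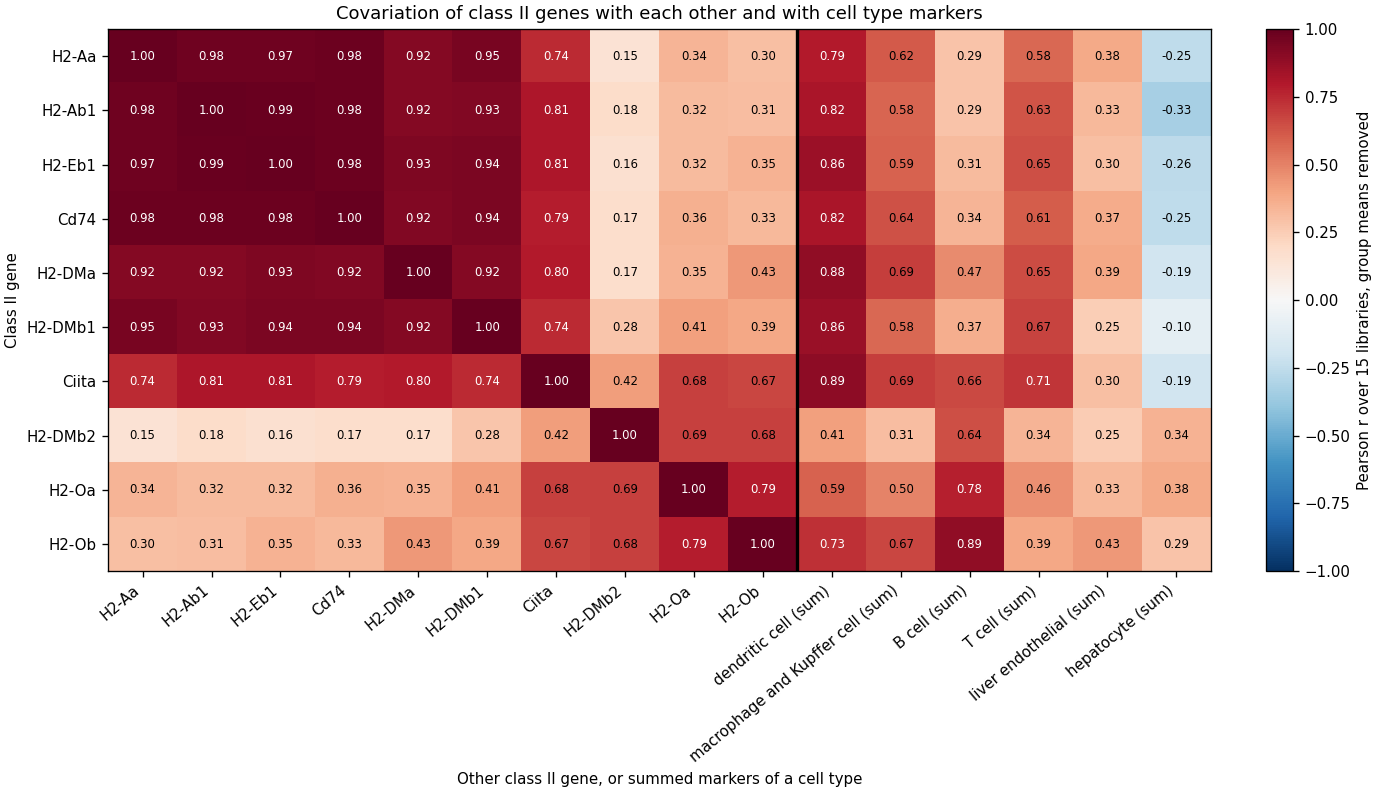
Pearson r over 15 libraries, group means removed, between the 10 class II genes (rows) and, left of the black line, each other or, right of it, the summed markers of 6 cell types. A block of 6 genes from H2-Aa to H2-DMb1 is dark red throughout (0.915 to 0.992), and H2-Oa and H2-Ob are pale against it and darker against each other (0.788) and in the B cell column (0.779 and 0.889).

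**Figure D5:**
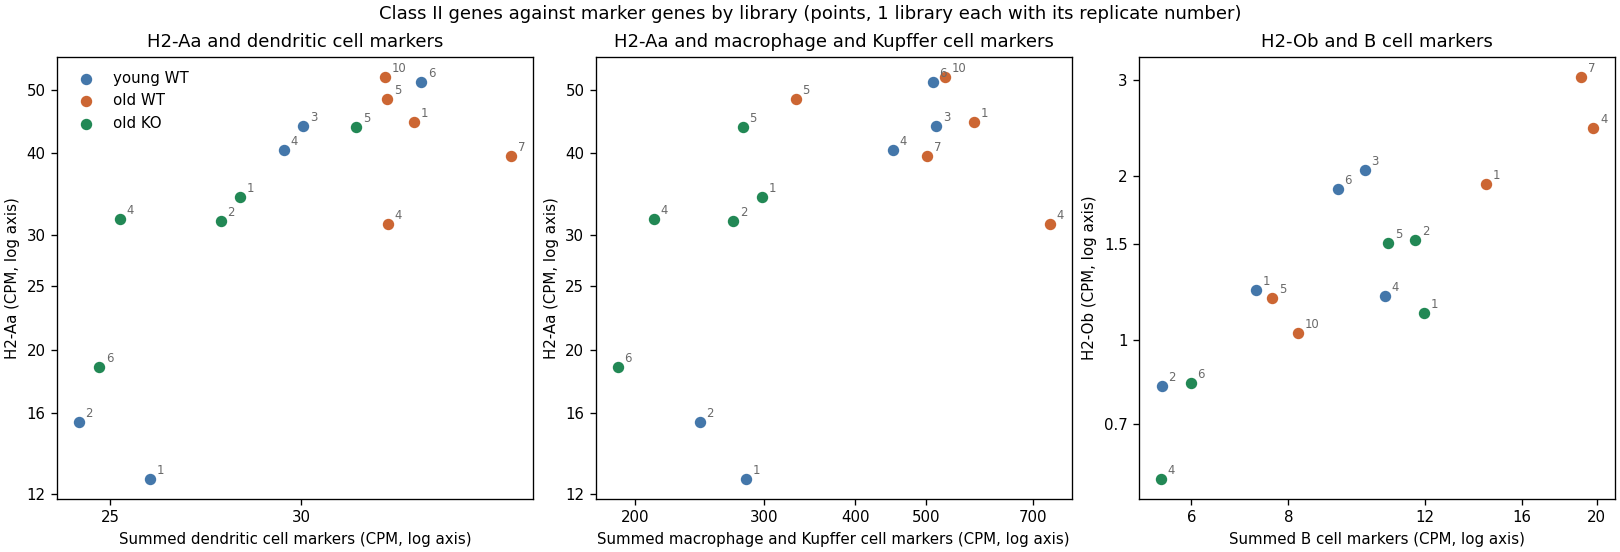
Levels in CPM on log axes, 1 point per library with its number, for H2-Aa against the summed dendritic cell markers, H2-Aa against the summed macrophage and Kupffer cell markers, and H2-Ob against the summed B cell markers. Old WT 4 and 7, with 19.8 and 19.1 CPM of B cell markers, hold the highest H2-Ob, and all 5 old KO libraries lie at the lower end of the macrophage axis, at 189 to 298 CPM.

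Marker genes of cells that carry class II molecules, and those of T cells, differed between the groups as follows, beside the class II values above. Over all genes edgeR called 9.92% higher and 8.91% lower with age, the share against which the marker counts for age stand. In old WT against young WT, B cell markers had 2 of 10 called higher and 0 lower (Ms4a1, 1.70, and Fcrla, 1.21), with a median of 0.71, and their sums spanned 5.50 to 10.7 CPM in young WT and 7.63 to 19.8 in old WT. Dendritic cell markers had 2 of 12 tested called higher and 1 lower, with a median of 0.41. The integrin gene Itgax rose by 1.67 (SE 0.286, edgeR adjusted p = 0.00154), Fscn1 rose by 0.61 and Zbtb46 fell by 0.42, while Flt3 (0.49, edgeR adjusted p = 0.291) and Clec9a (0.38, edgeR adjusted p = 0.175) did not pass. The dendritic cell sums spanned 24.3 to 33.6 CPM in young WT and 32.5 to 36.7 in old WT. Zbtb46, which endothelial cells also express, supplied 10.1 CPM of the young WT mean of 28.7. Macrophage and Kupffer cell markers had 4 of 15 called higher and 0 lower, led by Cx3cr1 (1.74), Ly6c2 (1.48), Lyz2 (0.94) and Ccr2 (1.06), with a median of 0.49. Of these, Ly6c2 and Ccr2 mark monocytes, and Clec4f, specific to Kupffer cells, did not pass (0.15, edgeR adjusted p = 0.697). T cell markers had 2 of 6 tested called higher, Cd8a (1.996) and Cd3e (0.97).

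These marker counts for age moved with single libraries. The count of macrophage and Kupffer cell markers called higher was 2 without young WT 1, 6 without young WT 3 and 7 without young WT 6 or old KO 6. That of B cell markers was 0 without young WT 1, young WT 2, old WT 1 or old WT 4, 3 without young WT 3, and 1 in 7 other fits without 1 library. That of T cell markers was 0 without old WT 5, 3 without young WT 6 or old WT 4, and 1 in 10 other such fits. That of dendritic cell markers was 1 with any of young WT 2 and old WT 1 and 5 left out, 3 without old KO 5 and 4 without young WT 6. By limma voom 0 B cell and 0 T cell markers were called. Itgax and Cx3cr1 kept their calls in all 15 fits without 1 library, but lost them in a fit with the library number as a block.

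In old KO against old WT, macrophage and Kupffer cell markers had 7 of 15 called lower and 0 higher, with a median of -1.02, where edgeR called 0.421% of all genes lower. The Kupffer cell genes Cd5l (-1.47), Clec4f (-1.27) and Vsig4 (-1.19), the lysosomal gene Cd68 (-1.18) and the 3 complement chains C1qb (-1.02), C1qc (-0.99) and C1qa (-0.91) made up that count. It rested on single libraries: leaving out any 1 of old WT 1, old WT 4, old KO 2, old KO 4 and old KO 6 took the count to 0, leaving out old KO 5 took it to 1, old WT 10 to 2, and young WT 4 or old WT 7 to 4, while the median stayed between -1.18 and -0.89. By limma voom the count was 2, and by DESeq2 9. The marker sums spanned 189 to 298 CPM in old KO, below the 332 to 739 CPM of old WT. Of the 15 fold changes 14 were negative, but the list did not fall evenly. The monocyte markers Ccr2 (-0.37, edgeR adjusted p = 0.754) and Ly6c2 (-0.05, edgeR adjusted p = 0.984) did not pass. Cx3cr1 (0.12, edgeR adjusted p = 0.947) was the positive 1. B cell markers had 0 of 10 called (median -0.56), dendritic cell markers 0 of 12 (median -0.40; Clec9a 0.03, edgeR adjusted p = 0.974) and T cell markers 0 of 6 (median -0.68). For age, where edgeR called 8.91% of all genes lower, liver endothelial and hepatocyte markers were counted as well. Liver endothelial markers had 2 of 6 called lower with age, Lyve1 (-0.94) and Stab2 (-0.56), and 0 of 6 called for genotype. Stab2 did not pass without young WT 3, young WT 4, old WT 5, old WT 7 or old WT 10. Of 5 hepatocyte markers, Apoa1 was called lower with age (-0.69), though not without young WT 2 or old WT 5, and none was called for genotype. The part of any of these cells in the class II values was not tested.

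Whether class II genes changed to a different extent than these markers was measured as a ratio within each library, for 5 markers chosen after the values had been seen. H2-Aa relative to Cd68 was 0.76 higher on the log2 scale in old KO than in old WT (exact permutation p = 0.0159, 0.119 after adjustment over 15 tests, n = 5 against 5). Relative to Clec4f it was 0.74 higher (exact permutation p = 0.0635, adjusted 0.238). Against young WT, the old KO ratio of H2-Aa to Clec4f was 1.21 higher, with no overlap between the groups (exact permutation p = 0.00794, adjusted 0.119). The ratios of H2-Aa to the dendritic cell genes Flt3 (-0.14) and Clec9a (-0.50) gave, for the effect of genotype, exact permutation p-values of 0.460 and 0.175. None of the 15 passed after adjustment, and a single ratio could not have passed, since the smallest p the test can give adjusts to 0.119.

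Ratios between class II genes were compared in the same way. H2-Eb1 to H2-Aa was -0.45 ± 0.0863 on the log2 scale of CPM in old WT, -0.46 ± 0.0707 in old KO and -0.54 ± 0.224 in young WT (SD, n = 5). Cd74 to H2-Aa was 1.22 ± 0.145 in young WT, 1.09 ± 0.108 in old WT and 1.03 ± 0.103 in old KO. Its difference between old KO and young WT, -0.19, had the smallest p of 24 such tests (exact permutation p = 0.0476, adjusted 0.702). The ratio of H2-DMa to H2-Aa differed by -0.23 for genotype (exact permutation p = 0.167, adjusted 0.702). None of the 24 passed after adjustment, and with 5 libraries a group a single pair could not have passed. They covered 8 of the pairs of class II genes, H2-DMb2 in none, and H2-Oa and H2-Ob against H2-DMa alone.

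Genes that act upstream of the class II promoters were called for age in 1 of 7 and 1 of 6 cases, where edgeR called 18.8% of all genes. Of the 7 genes of the promoter-bound factors (Rfx5, Rfxap, Rfxank, Nfya, Nfyb, Nfyc and Creb1), only Nfyb, a subunit of the Y box factor NF-Y, was called higher with age (0.35, SE 0.0957, edgeR adjusted p = 0.0191). It missed the threshold when young WT 4 or either of old WT 1 and 5 was left out. None of the 7 was called in old KO against old WT. There edgeR gave 2 of 7 an unadjusted p under 0.05, against 11.6% of all genes. These were Nfyc (0.18, edgeR unadjusted p = 0.0453) and Creb1 (0.28, edgeR unadjusted p = 0.0473), both higher in old KO. Of the 6 tested genes of interferon gamma signalling, which induces Ciita, Irf1 was called higher with age (0.48, SE 0.149, edgeR adjusted p = 0.0358) and none was called for genotype. Irf1 did not pass without young WT 1, 2, 3 or 4 or without old WT 1, 5 or 10. Ifng itself was too low to be tested.

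Among 8 genes of endosomal antigen processing, 3 were called higher and 0 lower with age by edgeR (9.92% and 8.91% of all genes). DESeq2 and limma voom each called 3 higher and 1 lower. Ctsb, a cysteine protease, rose by 0.64 (SE 0.0870, edgeR adjusted p = 3.67e-04), Ctsh by 0.36 and Ifi30, a thiol reductase that opens disulfide bonds of antigens, by 0.67. Their old WT libraries stood clear of all young WT libraries, where the groups stood apart in 11.4% of all genes. In a fit with the library number as a block, Ctsb kept its call and Ctsh and Ifi30 lost theirs. In old KO against old WT, 1 of 8 was called (0.533% of all genes), Lgmn, an asparaginyl protease, which fell by 0.68 (SE 0.136, edgeR adjusted p = 0.0377). Its call was lost with limma voom and in the fit with the library number as a block. It was also lost in 9 of 15 fits without 1 library, namely young WT 4, old WT 1, 4, 7 or 10, or old KO 2, 4, 5 or 6. Ctss, the protease that trims the invariant chain, showed 0.40 with age (edgeR adjusted p = 0.264) and -0.80 with genotype (edgeR adjusted p = 0.177).

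Over all genes edgeR called 18.8% for age and 0.533% for genotype, in comparisons that share the old WT libraries. Of 7 tested genes of class II turnover and costimulation, 1 was called in each comparison, Cd274, encoding the inhibitory ligand PD-L1. It rose by 0.62 with age (SE 0.204, edgeR adjusted p = 0.0437) and fell by 1.00 with genotype (SE 0.209, edgeR adjusted p = 0.0459). Neither call was stable. That for age was lost with no filter on low counts, with only the 10 libraries of the contrast and with the library number as a block. It was also lost in 9 of 15 fits without 1 library (young WT 1, 2, 3 or 4, old WT 1, 4, 5 or 10, or old KO 4). That for genotype was lost with limma voom and with the library number as a block. It was also lost in 12 of the 15 fits without 1 library, all but those without young WT 1, 2 or 6. The costimulatory genes Cd86 (0.46 and -0.72) and Cd80 (0.57 and -0.91) and March1, the ubiquitin ligase that removes class II molecules from the surface (0.39 and -1.07), did not pass in either comparison. Cd4 and Lag3, whose products bind class II molecules on T cells, were called in neither, with fold changes of -0.61 and 0.46 for age and -0.33 and -0.32 for genotype. Of 5 tested neighbours of the class II genes that belong to other pathways, Psmb8, an immunoproteasome subunit, was called higher with age (0.49, SE 0.142, edgeR adjusted p = 0.0240) and none with genotype. Psmb8 did not pass without young WT 1, 2 or 3 or without old WT 5 or 10, and 1 of 5 is close to the 18.8% of all genes called.

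The genes most like the class II pattern were ranked by r with the mean standardised level of the 10 genes over 15 libraries, group means removed, among 12117 genes with a mean of at least 1 CPM. Hk1, a hexokinase, was first (r = 0.946), followed by the leukocyte genes Plek (0.928) and Ms4a6b (0.926), the macrophage pore gene Mpeg1 (0.918) and Laptm5 (0.917). Hip1, Ms4a6c, Tbc1d9, AI607873 and Ikzf3 (0.898) completed the first 10. Within the pathway, Ctss (0.880), Cd86 (0.870) and Cd80 (0.866) came closest, and the median over the 7 promoter-factor genes was -0.309. The median over all ranked genes was -0.044. The members are part of the mean they were compared with and reached 0.479 (H2-DMb2) to 0.919 (H2-DMb1).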

How the data were processed

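The sample titles gave each library's group and number, and each of the 15 columns matched 1 title. The authors extracted RNA from flash-frozen liver, made stranded poly(A) libraries, aligned single-end reads of 50 bases to mm9 with TopHat2 2.0.11 (version per the submitters' processing notes) and then ran HTSeq. What they deposited are its raw counts of reads for each gene, not normalized or pooled. The annotation release and the strand setting of the counting are not given in the sources used here. Libraries were treated as separate animals, and p-values measure the spread between these libraries.

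Here, genes were filtered with filterByExpr and a quasi-likelihood model with TMM scaling was fitted to all 15 libraries in edgeR 4.0.16 (R 4.3.3), with Benjamini-Hochberg adjustment over 14258 genes and a threshold of 0.05. Where no tool is named, an adjusted p is from this fit. SE is that of the fitted log2 fold change. The authors used DESeq2 with a design that is not described, so DESeq2 1.42.0 was an alternative, as was limma 3.58.1 (voom). CPM used TMM-scaled library sizes, and log2 CPM a prior count of 2. Ratios and marker sums used log2 of CPM plus 0.1 and, for ratios, an exact 2-sided permutation test over 252 assignments of 5 against 5. CPM per kb used the union exon length in GENCODE M1, whose genome build, NCBIM37, is that of mm9. The fit was tested on simulated counts before use. With totals of 21801754 to 38065359 counts, counting error is small for Cd74 and large for H2-Oa.

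The class II genes, 13 other gene lists and the tests were chosen with earlier results of these data known. Genes named from a list are those with an adjusted p under 0.05 for age or genotype (up to 5 each), otherwise the 3 with the smallest p, defining markers of each cell type, and the 10 genes most like the class II pattern. Others, among them Ctss, Cd80, Cd86 and March1, were named after their values were seen. Of 99 list genes, 97 matched by symbol and 2 by RefSeq synonym. Alternatives changed the scaling, tool, filter, dispersion, libraries or pseudocount 1 at a time. In the setting named replicate block, the library number was added to the model as a block. Results of some list genes are not reported here.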

Additional observations from a re-analysis of the deposited data

How the results depend on the processing

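No alternative called a class II gene for genotype, or between old KO and young WT. For age the count of called class II genes was 1 with DESeq2 (H2-Oa) and 1 with limma voom (H2-DMb1), and 0 to 1 when single libraries were left out: H2-Oa without young WT 3, old WT 10 or old KO 6, and Ciita without young WT 6. All age fold changes of the 10 genes stayed positive and all genotype fold changes negative under the 10 other settings and the 15 fits without 1 library, apart from H2-Oa and H2-DMb2, which a minimum mean of 1 CPM removed. Over all genes, the age count of 2685 was 1748 to 3284 without single libraries, lowest without young WT 1. The genotype count of 76 was 305 with DESeq2, 23 with limma voom and 9 to 108 without single libraries. It was 41 when young WT 4 was omitted. Omitting old WT 1, 4, 7 or 10 gave 10, 9, 37 or 42 genes, and omitting old KO 2, 4, 5 or 6 gave 13, 14, 17 or 13. The age and genotype counts were 899 and 6 with the replicate block, and no class II gene was called. The age calls of Irf1, Psmb8 and Stab2 were lost with the replicate block. So were the genotype calls of Cd5l, Clec4f, Vsig4, Cd68, C1qa, C1qb and C1qc. The titles do not say whether equal numbers mark paired animals. Residuals of same-numbered libraries correlated at -0.153 to 0.077 over 9 pairs (median 0.002). Those of differently numbered libraries of 2 groups correlated at -0.267 to 0.355 over 66 pairs (median -0.001). These values cannot show whether animals were paired by litter, cage or handling. Of the 10 genes most like the class II pattern, 6 were shared when group means were kept and 6 with Spearman correlation. Fold changes of old KO against young WT, close to 0, changed sign with limma voom for H2-Aa (0.16), H2-Ab1 (0.13) and H2-DMa (0.003), with the replicate block for H2-Aa (0.13), H2-Ab1 (0.029) and H2-DMb1 (-0.0056), and with H2-DMb1 and H2-DMb2 summed (-0.017). Without single libraries they ranged from -0.24 to 0.19 for H2-Aa, -0.28 to 0.24 for H2-Ab1, -0.11 to 0.37 for H2-Eb1, -0.30 to 0.045 for H2-DMa, -0.20 to 0.21 for H2-DMb1, -0.24 to 0.073 for H2-DMb2, -0.34 to 0.046 for Cd74 and -0.11 to 0.44 for Ciita. The causes of these changes were not tested. Depth limits H2-Oa, with 1 to 27 counts a library, and shared sequence limits H2-DMb1 and H2-DMb2.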
